A study of Mus musculus with 11 samples.

Results

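The choroid plexus marker genes are 10 transcripts of the epithelium that makes cerebrospinal fluid, a tissue that lies in the ventricles against the hippocampus and is not part of it. They were taken by gene symbol (Ttr, Folr1, Kl, Clic6, Prlr, Kcnj13, Aqp1, Otx2, Slc4a5 and Sostdc1) from 46202 rows of a table of log2 RNA-seq signals. No cutoff on their values was used, but the list was made with earlier results of these data known. All 10 had a row. The 11 libraries came from the hippocampus of male C3-C57B1/6J mice aged 2-3 months, single-housed, which had received saline or insulin into the nose and were anesthetized with isoflurane before dissection. The groups were saline (3 libraries, whose treatment label reads Untreated and whose time label reads 0 min), and insulin at 2.4 IU per nare with dissection after 15 min (2 libraries, replicates 1 and 3), 1 h (3 libraries) or 6 h (3 libraries). All saline libraries carry the 0 min label, so time after dosing and insulin cannot be told apart. The study asked how insulin acts on lipid metabolism in the brain; here the marker genes were read library by library, as a sign of dissection content; how much plexus each dissection carried was not measured apart from these genes, and its part in the values was not tested.

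The choroid plexus epithelium sits on a leaky capillary bed and moves ions, bicarbonate and water into the ventricle, while its tight junctions close the barrier between blood and cerebrospinal fluid. It exports carrier proteins and hormones, takes folate from the blood into the fluid, and is held in its identity by the homeodomain factor encoded by Otx2. In the hippocampus proper most of these transcripts are low, so that a fragment of plexus left on the tissue can set their level in bulk RNA. In such samples fewer cells of a type and less RNA per cell cannot be told apart.

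The promoters of the members were searched for TAATCC, the core that OTX2 and related homeodomain proteins bind, on both strands, because the members moved together across libraries. RefSeq (GRCm38.p6) promoters, 250 bases before to 50 after a start, were held for 6 of the 10 genes as 11 sequences (Kcnj13, Kl, Aqp1, Slc4a5, Otx2 with several starts, and Prlr with several starts). The motif was in 1 of these 11, an Otx2 start inside the gene, where it lies as its reverse complement at base 40 from the 5′ end, and in 7.06% of all 32851 promoters of 300 bases. The 250 bases before that start are shown first, 5′ to 3′ on the gene's strand with the match in capitals, followed by those of Aqp1 and Slc4a5, the members whose signal followed the mean of the others most closely. The Aqp1 and Slc4a5 windows hold no match to these letters, and a match is a description of the letters only. The Slc4a5 window belongs to a start inside the gene, whose span begins at 83207580.
Otx2 chr14:48665110-48665359 minus strand: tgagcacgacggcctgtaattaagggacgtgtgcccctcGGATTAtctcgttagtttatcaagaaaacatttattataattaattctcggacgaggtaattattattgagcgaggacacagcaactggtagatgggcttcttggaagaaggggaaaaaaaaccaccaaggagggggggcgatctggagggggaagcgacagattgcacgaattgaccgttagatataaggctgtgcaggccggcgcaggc
Aqp1 chr6:55336049-55336298 plus strand: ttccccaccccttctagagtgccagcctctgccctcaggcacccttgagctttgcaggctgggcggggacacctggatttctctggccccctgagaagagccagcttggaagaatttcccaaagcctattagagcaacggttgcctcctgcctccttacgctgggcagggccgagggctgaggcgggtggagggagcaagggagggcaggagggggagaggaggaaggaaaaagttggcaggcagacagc
Slc4a5 chr6:83237125-83237374 plus strand: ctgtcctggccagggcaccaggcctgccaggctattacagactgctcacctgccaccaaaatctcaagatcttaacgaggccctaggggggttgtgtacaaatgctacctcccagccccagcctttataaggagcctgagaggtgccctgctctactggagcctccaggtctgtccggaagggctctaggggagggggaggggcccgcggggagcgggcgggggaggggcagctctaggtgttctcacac

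The 10 listed marker genes of hippocampal neurons had a value in every library, as did the 8 listed for thalamus and the 8 for striatum, so detection alone does not set the labelled tissue apart from its neighbours. Over the 11 libraries the span of the hippocampal markers ran from 0.82 (Wfs1) to 4.62 log2 units (Neurod6). The libraries held values for 32037 to 33653 rows each; their sequencing depth is unknown, as the table holds no counts. The members differed widely between libraries of the same group. Taking the 9 members with a value everywhere, 15 min replicate 1 was the highest of the 11 libraries for 9 of 9, and 1 h replicate 3 the next highest for 9 of 9. At the other end, 6 h replicate 2 was the lowest library for 7 of 9 members and among the lowest 3 for 9 of 9, 1 h replicate 1 was among the lowest 3 for 9 of 9, and 6 h replicate 1 for 8 of 9. Libraries of the same insulin group thus lay far apart, and at 6 h replicates 1 and 2 were both low. The changes with insulin are also given without single libraries.

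Set against the range of the saline libraries, 15 min replicate 1 and 1 h replicate 3 lay above every saline library for all 9 members, whereas 1 h replicate 1, 6 h replicate 1 and 6 h replicate 2 lay below every saline library for all 9. The other insulin libraries were closer: 7 of 9 members lay below the saline range in 15 min replicate 3, 7 of 9 in 1 h replicate 2 and 6 of 9 in 6 h replicate 3. Averaged over the 9 members, each centred on its own mean, the log2 deviation was 0.89, 0.47 and 0.39 in the saline libraries, 1.89 and 0.11 at 15 min, -1.52, -0.15 and 1.41 at 1 h, and -1.25, -2.32 and 0.09 at 6 h. Libraries far above and far below saline thus occurred within the same 1 h group, and the saline libraries lay together.

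**Figure D1:**
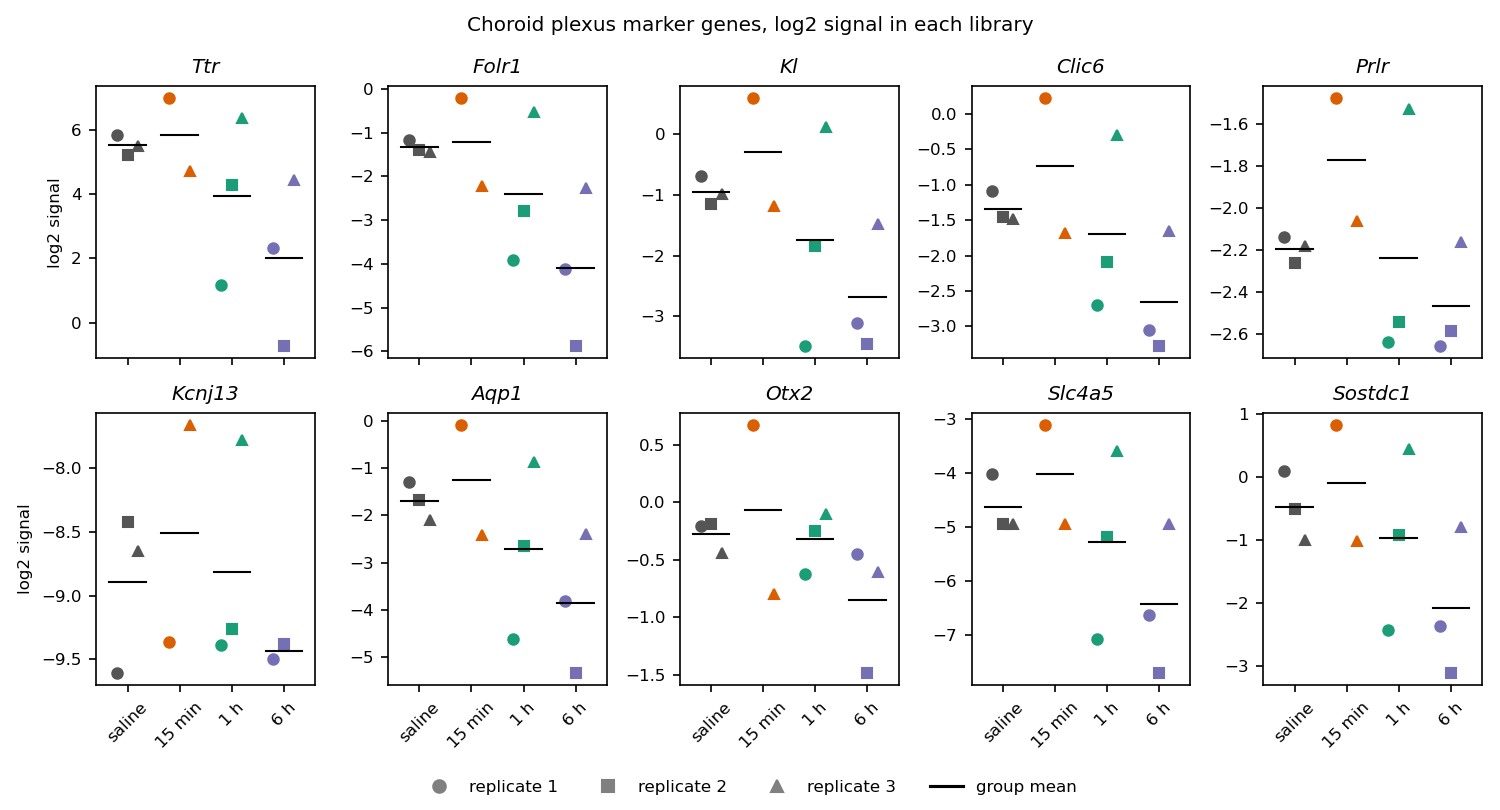
Log2 signal (y axis, deposited scale, its own range in each panel) of the 10 choroid plexus marker genes in each library, by group on the x axis (saline, then insulin at 15 min, 1 h and 6 h); symbols mark the replicate number and the black bar is the group mean. Apart from Kcnj13, every panel has 15 min replicate 1 at the top and 1 h replicate 3 next, and the saline libraries close together.

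Among the secreted products, Ttr encodes transthyretin, the carrier of thyroxine and of retinol-binding protein and the leading export of this epithelium (chromosome 18, 20664209 to 20674326). Its log2 signal was 5.85, 5.22 and 5.50 with saline, 6.98 and 4.71 at 15 min, 1.17, 4.29 and 6.39 at 1 h, and 2.31, -0.73 and 4.44 at 6 h. The lowest and the highest library, 6 h replicate 2 and 15 min replicate 1, were 7.71 log2 units or 209.6-fold apart. With saline the libraries differed by at most 1.55-fold, against 37.1-fold among the 1 h libraries and 36.0-fold among the 6 h libraries. The SD within groups, pooled over the 4 groups, was 2.07, which placed Ttr at rank 13 of 25771 rows with a value in every library. The 6 h libraries all lay below the saline libraries, and the other insulin groups overlapped saline.

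Sostdc1 encodes a secreted antagonist of BMP and Wnt signals (chromosome 12, 36314169 to 36318452). It stood at 0.09, -0.51 and -1.01 with saline, 0.82 and -1.01 at 15 min, -2.43, -0.93 and 0.45 at 1 h, and -2.36, -3.10 and -0.79 at 6 h. Its order of libraries was close to that of Ttr, with a span of 3.92, and every insulin group overlapped saline, 6 h through replicate 3.

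Of the receptors, Folr1 encodes folate receptor alpha, which carries folate across the epithelium into the cerebrospinal fluid (chromosome 7, 101858331 to 101870788). Its signal was -1.16, -1.40 and -1.44 with saline, -0.22 and -2.23 at 15 min, -3.91, -2.78 and -0.54 at 1 h, and -4.13, -5.88 and -2.26 at 6 h. All 6 h libraries lay below saline, and the span of 5.66 was next to that of Ttr in size among the members. Anapc15 overlaps Folr1 on the opposite strand in GENCODE M21, and whether the authors counted by strand is not given in the sources used here.

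Kl encodes Klotho, the co-receptor that FGF23 needs at its receptor, which the plexus also sheds into the fluid (chromosome 5, 150952607 to 150993817). It stood at -0.68, -1.16 and -0.99 with saline, 0.59 and -1.19 at 15 min, -3.49, -1.84 and 0.12 at 1 h, and -3.11, -3.45 and -1.48 at 6 h. Here 1 h replicate 1 was the lowest library, just under 6 h replicate 2, and the 6 h libraries again lay below all saline libraries.

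Prlr encodes the receptor for the pituitary hormone prolactin, which this epithelium carries in abundance (chromosome 15, 10177238 to 10349190). Its signal was -2.14, -2.26 and -2.18 with saline, -1.48 and -2.07 at 15 min, -2.64, -2.54 and -1.53 at 1 h, and -2.66, -2.59 and -2.16 at 6 h. Both 15 min libraries lay above the saline range, while 6 h replicate 3 lay within it. The span of 1.18 was the narrowest of the 9 members with a value everywhere, and the pooled SD of 0.39 ranked 7108 of 25771. In GENCODE M21 the gene Gm21973 overlaps Prlr on the same strand, and reads of the pair may not be separable.

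Among the genes of ion and water movement, Aqp1 encodes the apical water channel aquaporin 1 (chromosome 6, 55336299 to 55348555). Its values were -1.30, -1.67 and -2.10 with saline, -0.09 and -2.42 at 15 min, -4.62, -2.65 and -0.86 at 1 h, and -3.81, -5.33 and -2.40 at 6 h. The 6 h libraries lay below the saline libraries, and the highest and lowest library were 37.6-fold apart.

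Slc4a5 encodes a sodium bicarbonate cotransporter of the apical membrane (chromosome 6, 83207580 to 83304945). It stood at -4.02, -4.94 and -4.95 with saline, -3.12 and -4.94 at 15 min, -7.07, -5.19 and -3.60 at 1 h, and -6.63, -7.70 and -4.94 at 6 h. In 6 h replicate 3 it lay inside the saline range, so that the groups overlapped, whereas the other 6 h libraries lay below it.

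Clic6 encodes a member of the chloride intracellular channel family (chromosome 16, 92498147 to 92541241). Its values were -1.10, -1.46 and -1.49 with saline, 0.22 and -1.68 at 15 min, -2.70, -2.09 and -0.30 at 1 h, and -3.05, -3.28 and -1.65 at 6 h. All 6 h libraries lay below saline. In GENCODE M21 the gene 2410124H12Rik overlaps Clic6 on the same strand, and reads of the pair may not be separable.

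Kcnj13 encodes the inward rectifier potassium channel Kir7.1 (chromosome 1, 87384577 to 87394729). Its signal was low, at -9.61, -8.42 and -8.65 with saline, -9.36 and -7.66 at 15 min, -9.39, -9.26 and -7.78 at 1 h, and -9.50 and -9.38 at 6 h, with no value in 6 h replicate 3. Its mean was under the cutoff of -8.66 for low rows, so it was not tested, and its order of libraries differed from the rest: 15 min replicate 3 was the highest and saline replicate 1 the lowest. The gene lies within Gigyf2, which runs on the opposite strand.

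Otx2 encodes the transcription factor of the group (chromosome 14, 48656781 to 48667644). Its signal was -0.20, -0.19 and -0.44 with saline, 0.67 and -0.80 at 15 min, -0.62, -0.25 and -0.10 at 1 h, and -0.45, -1.48 and -0.61 at 6 h. The 6 h libraries lay below saline, but by as little as 0.003 for 6 h replicate 1, and the span of 2.15 was narrow. In GENCODE M21 the gene overlaps the antisense Otx2os1 and, on its own strand, Gm49154, and reads of these genes may not be separable.

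The question of the study's design, whether the level differed after insulin, was put to the 9 members that passed the filter on low values, with limma fitted on the whole table and p-values adjusted over all rows tested. None of the 9 passed the threshold at 15 min, 1 h or 6 h. Over all rows, 0.239% were called at 15 min (66 of 27653), 0.877% at 1 h (243 of 27706) and 0% at 6 h (0 of 27707), so a count of 0 among 9 genes lies at the background. At an unadjusted p under 0.05 by limma, 0 of 9 members were higher at 15 min, beside 1.86% of all rows, 0 were lower at 1 h, beside 12.8%, and 2 were lower at 6 h (Folr1 and Ttr), beside 4.23%. No count test could be run on these values.

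At 15 min all 9 tested members had a positive log2 change, against 31.3% of all rows. The median change was 0.42, beside -0.14 for all rows, and the single changes ran from 0.11 (Folr1) to 0.65 (Kl). For Ttr the mean was 5.85 ± 1.61 at 15 min (SD, n = 2) and 5.53 ± 0.32 with saline (SD, n = 3), a log2 change of 0.32 (SE 1.58; limma adjusted p = 0.94). Prlr had the smallest p (0.42, SE 0.32; limma adjusted p = 0.56) and was the only member with both 15 min libraries above all saline libraries, as were 6.96% of rows. Without 15 min replicate 1, 8 of 9 members had a negative change and the median was -0.52; without 15 min replicate 3 the median was 1.46. Each of these runs leaves 1 library at 15 min, which is assumed to vary as the other groups do.

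At 1 h all 9 tested members had a negative change, against 66.8% of all rows, with a median of -0.65 beside -0.11 for all rows. Ttr averaged 3.95 ± 2.62 at 1 h and 5.53 ± 0.32 with saline (SD, n = 3 each), a change of -1.58 (SE 1.41; limma adjusted p = 0.64), and Folr1 changed by -1.08 (SE 0.99; limma adjusted p = 0.65). Prlr and Otx2 changed by -0.04 each (SE 0.28 and 0.36). No member had all 1 h libraries on one side of the saline libraries, whereas 21.5% of rows had them all below. Without 1 h replicate 1 the median was 0.11, with 6 of 9 changes positive, and the changes of Ttr, Folr1 and Aqp1 were -0.19, -0.33 and -0.06. Without 1 h replicate 3 the median was -1.50, and those changes were -2.80, -2.01 and -1.94.

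At 6 h all 9 tested members again had a negative change, against 57% of all rows, and the changes were larger. The median was -1.74, beside -0.04 for all rows. Ttr averaged 2.01 ± 2.60 at 6 h and 5.53 ± 0.32 with saline (SD, n = 3 each), an 11.5-fold lower mean (log2 change -3.52, SE 1.41; unadjusted p = 0.032 and adjusted p = 0.70 by limma). Folr1 averaged -4.09 ± 1.81 at 6 h and -1.33 ± 0.15 with saline, 6.75-fold lower (-2.75, SE 0.99; unadjusted p = 0.019 and adjusted p = 0.70 by limma). Aqp1 changed by -2.15 (SE 0.98), Slc4a5 by -1.79 (SE 0.92), Kl by -1.74 (SE 0.84), Sostdc1 by -1.61 (SE 0.78) and Clic6 by -1.31 (SE 0.67), while Otx2 changed by -0.57 (SE 0.36) and Prlr by -0.27 (SE 0.28). For 6 of the 9 (Ttr, Folr1, Kl, Clic6, Aqp1 and Otx2) every 6 h library lay below every saline library, as did 8.78% of rows; these genes share their libraries, and so do not count as separate observations.

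The size at 6 h rested in part on 1 library. Without 6 h replicate 2 the change of Ttr was -2.15 (limma adjusted p = 0.95) and that of Folr1 -1.86 (limma adjusted p = 0.94), and the median over the members was -1.15. Without 6 h replicate 3, the library nearest to saline, the change of Ttr was -4.73 and the median -2.34. Without 6 h replicate 1 the median was -1.52. On leaving out any 1 saline or 6 h library, the 9 changes at 6 h stayed negative. Leaving out a library of another insulin group cannot alter these changes, so those runs do not bear on the direction. Among the 11 runs that left out 1 library each, no member passed the threshold in those with more than 1 library in every group. The lowest adjusted p by limma in these was 0.44 for Folr1.

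**Figure D2:**
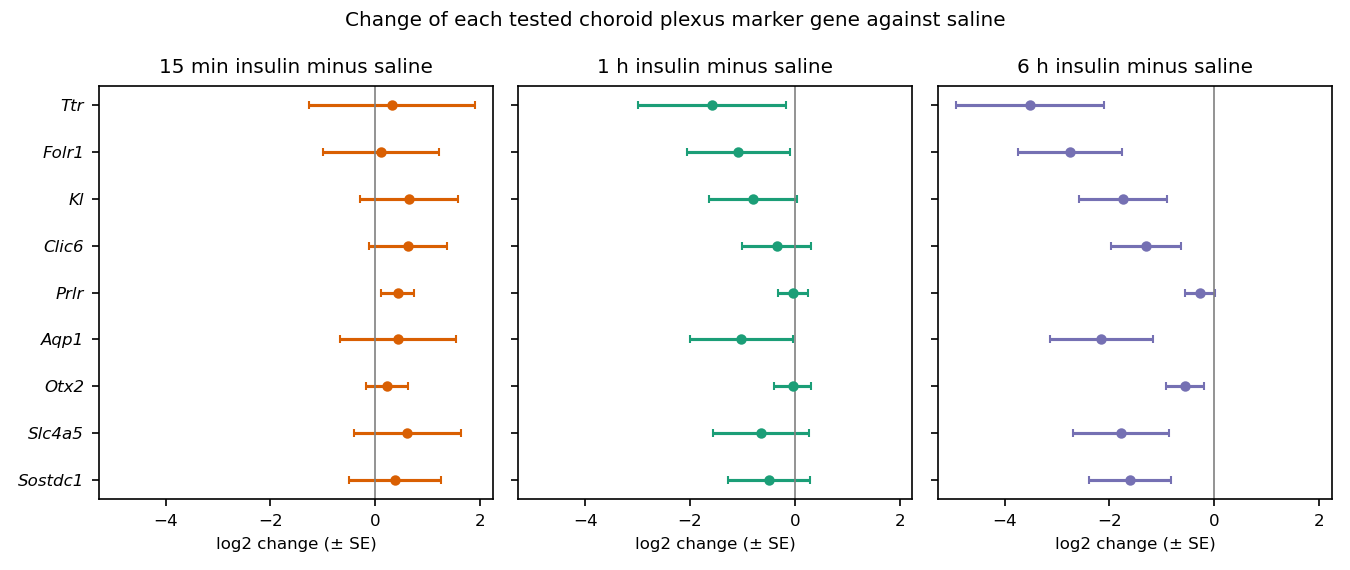
Log2 change against saline (x axis) of the 9 tested members (rows) at 15 min, 1 h and 6 h after insulin; points are the fitted changes and bars ± 1 SE of the limma fit over all 11 libraries. All points lie right of 0 at 15 min and left of 0 at 1 h and 6 h, from -3.52 for Ttr to -0.27 for Prlr at 6 h; none passed the threshold.

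The insulin times were also compared with each other, in tests that share the insulin libraries with the comparisons above. From 15 min to 6 h the 9 changes (6 h minus 15 min) were all negative with a median of -2.38, and 7 of 9 had an unadjusted p under 0.05, beside 2.47% of all rows lower by that rule, yet the lowest adjusted p by limma was 0.29 (Folr1 and Clic6); over all rows 2 of 27647 were called (0.00723%). For 5 of the 9 every 6 h library lay below both 15 min libraries, as did 7.08% of rows. The 9 changes stayed negative on leaving out any 1 library, with a median from -3.27 (without 15 min replicate 3) to -1.42 (without 15 min replicate 1). Leaving out a saline or 1 h library cannot alter these changes, so those runs do not bear on the direction. Without 15 min replicate 1 or without 6 h replicate 2 (median -1.76), 0 of 9 had an unadjusted p under 0.05 by limma, and without 6 h replicate 1 (median -2.17) 1 did; without a saline or other insulin library 4 to 9 did. The median was -1.19 for 1 h against 15 min and -1.12 for 6 h against 1 h, with 0 of 9 members past the threshold or at an unadjusted p under 0.05 in either by limma. For 1 h against 15 min, 0% of rows were called, 1.13% were lower at an unadjusted p under 0.05 and 6.42% lay below without overlap, as did 0 members. For 6 h against 1 h these shares were 0.0108%, 2.17% and 3.17%, again beside 0 members. Leaving out 1 library at a time, the median for 1 h against 15 min ran from -2.17 (without 15 min replicate 3) to -0.18 (without 15 min replicate 1). For 6 h against 1 h it ran from -1.84 (without 1 h replicate 1) to -0.29 (without 1 h replicate 3). The counts at an unadjusted p under 0.05 by limma also depended on single libraries. For 1 h against 15 min, 4 of 9 members were lower by that rule without 1 h replicate 3. For 6 h against 1 h, 6 of 9 were without 1 h replicate 1, and 1 of 9 without 6 h replicate 3. No member was in the other runs with more than 1 library at each time, and none passed the threshold.

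Within a library the members kept no fixed ratio on the deposited scale. For each log2 unit of Ttr over the 11 libraries, the fitted slope was 0.71 for Folr1, 0.66 for Aqp1, 0.59 for Slc4a5, 0.55 for Kl, 0.50 for Sostdc1 and 0.42 for Clic6, but 0.18 for Otx2 and 0.14 for Prlr. The log2 difference between Folr1 and Ttr moved within 2.12 units and that between Prlr and Ttr within 6.60. Of the sum of squares, 49.7% (Folr1, the least among the members) to 68.0% (Otx2) lay within groups rather than between them, and 54.3% for Ttr. With 11 libraries in 4 groups, most of it falls within groups on average even where groups do not differ. No share over all rows was set beside these, so they do not measure the part of the group. Each member was also set against the mean of the others over the 11 libraries, as a description with no test, since the points share libraries and normalization. Pearson's r was 0.97 to 0.99 for 7 members, 0.87 for Prlr and 0.82 for Otx2. When 6 h replicate 2 and 15 min replicate 1 were left out, it was 0.54 for Otx2 and 0.867 (Prlr) to 0.991 (Kl) for the other 8. The likeness of Otx2 thus rests largely on those libraries.

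**Figure D3:**
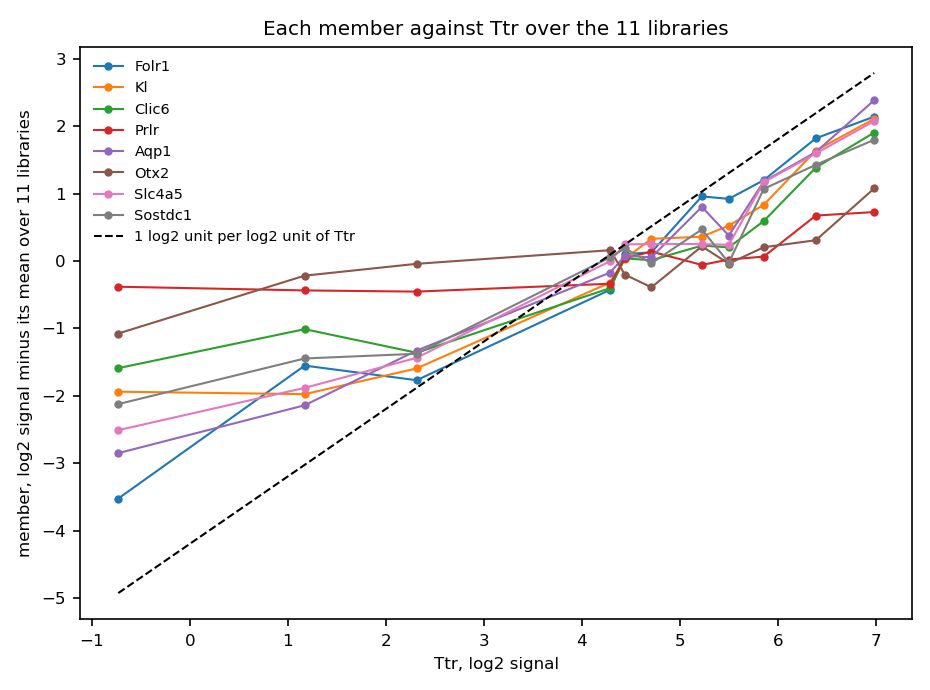
Each of 8 members (y axis, log2 signal minus its mean over the 11 libraries) against the log2 signal of Ttr (x axis); each point is a library, and lines join the libraries in order of Ttr. The dashed line has a slope of 1; Folr1 comes nearest to it with 0.71, and Otx2 and Prlr are flattest with 0.18 and 0.14.

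Genes outside the members whose libraries ran in the same order were sought over 25762 rows, by Pearson's r with the mean of the 9 members over the 11 libraries. The closest were F5, which encodes coagulation factor V (r = 0.996), Tmem72, a transmembrane protein gene (0.99), Zfp185, a LIM domain protein gene (0.99), Slc2a12, a glucose transporter gene (0.99), Drc7, a gene of the dynein regulatory complex of cilia (0.99), Kcne2, a potassium channel subunit gene (0.98), Krt18, a keratin gene (0.98), Col8a1, a collagen gene (0.98), Cldn2, a claudin of leaky tight junctions (0.98), and Wdr72 (0.98). In 9 of these 10 the lowest library was 6 h replicate 2, in Cldn2 it was 1 h replicate 1, and in all 10 the highest was 15 min replicate 1. With those 2 libraries farthest from the middle left out, 6 h replicate 2 and 15 min replicate 1, r ran from 0.968 (Col8a1) to 0.996 (F5). Kcne2 shows the size: its log2 signal was 0.23, -0.75 and -0.71 with saline, 1.03 and -1.34 at 15 min, -4.26, -1.31 and 0.40 at 1 h, and -3.01, -5.60 and -0.95 at 6 h, a span of 6.63. Of all rows outside the members, 72 (0.279%) had r over 0.9, and 1 had r under -0.9.

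A further list of 51 choroid plexus genes held 50 with a row, all tested. None was called by limma at 15 min, 1 h or 6 h, beside the shares of all rows given above. Of the 49 with a value everywhere, 17 had r over 0.9 with the members, among them Tmem72, Kcne2, Cldn2, Krt18 and F5, and 15 did when 6 h replicate 2 and 15 min replicate 1 were left out. At 6 h, 11 of 12 genes of secreted products, 13 of 16 of transport and 12 of 13 of junctions and structure had a negative change. So had 9 of 9 of receptors and factors, against 57% of all rows. The medians were -0.59, -0.31, -1.02 and -0.36. Without 6 h replicate 2 these counts were 10 of 12, 14 of 16, 12 of 13 and 7 of 9, and the medians -0.51, -0.26, -0.58 and -0.36. The other times were less uniform. At 15 min, 7 of 12, 10 of 16, 9 of 13 and 4 of 9 had a positive change, against 31.3% of all rows. For 1 h, 8 of 12, 13 of 16, 9 of 13 and 4 of 9 had a negative change, against 66.8%.

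The genes with the smallest p in each group at 6 h were Bmp6, a BMP ligand (-0.38), and Enpp2, the enzyme autotaxin (-1.01), among secreted products, and Slc28a3, a nucleoside transporter (-1.30), and Slc13a4, a sulfate transporter (-1.35), among those of transport. They were Calml4, a calmodulin-like protein (-1.02), and Col8a1 (-1.06) among structure genes, and Msx1, a homeobox factor (-1.55), and Lepr, the leptin receptor (-0.46), among receptors and factors. Their adjusted p by limma ran from 0.70 to 0.72. At 1 h the same rule gave Bmp6 (-0.30), Wfdc2 (-1.17), Car14, a carbonic anhydrase (-0.46), Slc28a3 (-0.81), Cab39l (0.28), Vat1l (0.21), Cdh3, a cadherin (0.53), and Msx1 (-0.66), with adjusted p of 0.24 to 0.67. At 15 min it gave Bmp6 (-0.25), Igf2 (0.52), Atp1b1 (0.11), Trpv4 (0.82), Cab39l (0.30), Cldn3 (0.99), Htr2c (0.27) and Ptgs1 (-0.17), with adjusted p of 0.41 to 0.70. Several of these, Atp1b1 and Htr2c among them, are also made by neurons. With the members Atp1b1 had r = -0.09 and Htr2c r = 0.90. Without 6 h replicate 2 and 15 min replicate 1 these were 0.21 and 0.85.

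Genes that act with the members in their pathways were also read. For thyroxine and retinol handling (10 genes), folate transport and use (8), FGF receptors and Klotho partners (7 tested of 8) and prolactin signalling (7 tested of 8), none was called at any time by limma, and the median r with the members was 0.46, 0.13, -0.15 and -0.10, and 0.51, 0.26, -0.03 and -0.20 without 6 h replicate 2 and 15 min replicate 1. Fgf23, the hormone that acts through Klotho, averaged -5.58 ± 0.32 at 15 min (n = 2) and -4.41 ± 0.11 with saline (n = 3; SD), a log2 change of -1.17 (SE 0.22; limma adjusted p = 0.075). At 6 h it averaged -3.98 ± 0.06 against -4.41 ± 0.11 with saline (SD, n = 3 each), a change of 0.43 (SE 0.19; limma adjusted p = 0.71). Slco1c1, a thyroxine transporter of brain vessels, had r = 0.86 and changed by -0.62 at 6 h (SE 0.17; limma adjusted p = 0.62).

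**Figure D4:**
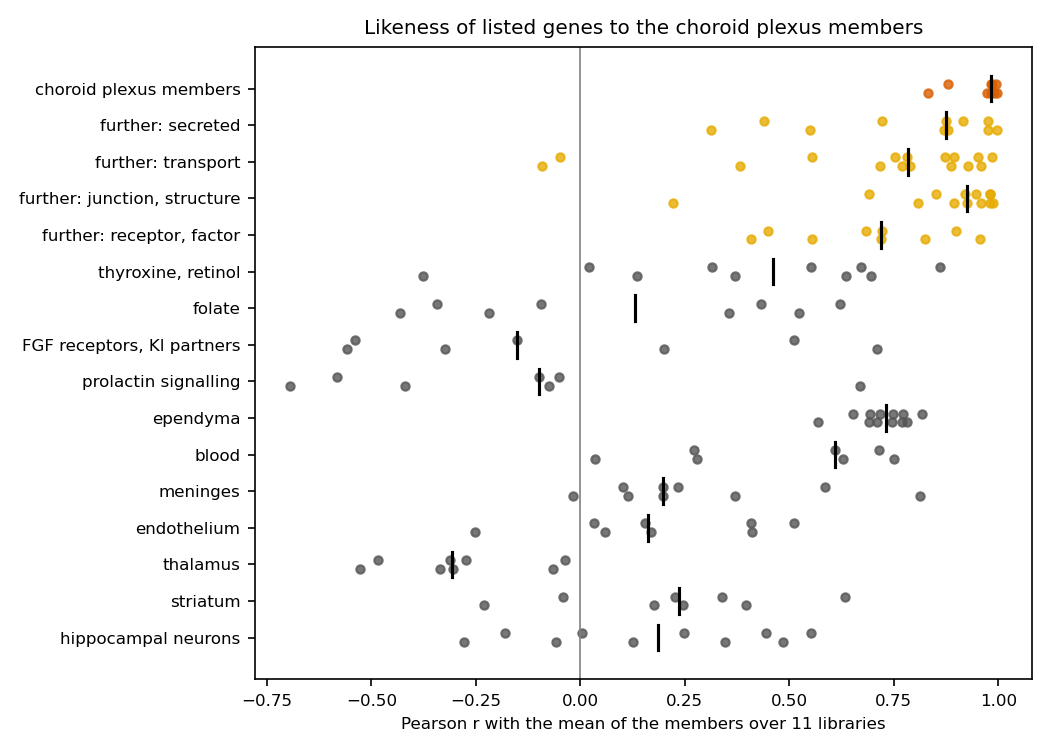
Pearson's r over the 11 libraries between each listed gene and the mean of the 9 members (x axis), by gene list (y axis); points are genes with a value in every library, bars are list medians, and the first row holds the members themselves, which enter that mean. The medians are 0.98 for the members, 0.72 to 0.93 for the further choroid plexus lists, 0.73 for ependyma and between -0.31 and 0.61 for the others.

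Markers of tissue that borders the plexus were read beside the members. All 12 listed genes of the ciliated ependyma, the lining of the ventricles, had a value in every library, and all 12 had r over 0.5 with the members (median 0.73, highest 0.82 for Dynlrb2, a dynein light chain gene). When 6 h replicate 2 and 15 min replicate 1 were left out, 5 of 12 had r over 0.5, the median was 0.44 and the range 0.08 to 0.77, so this likeness rests largely on those libraries. Their summed signal, in log2, was 2.37 to 2.60 in saline libraries, 2.18 to 2.81 in those of 15 min, 2.41 to 2.48 in those of 1 h, and 1.87 to 2.27 in those of 6 h. At 6 h 12 of 12 had a negative change (median -0.54, and -0.41 without 6 h replicate 2), and 0 of 12 were called by limma. For the 8 blood genes the summed signal was 6.49 to 6.80 in saline libraries, 6.03 to 7.04 in those of 15 min, 6.41 to 7.12 in those of 1 h, and 6.01 to 6.34 in those of 6 h, with a median r of 0.61 over 7 genes, and 0.37 without those libraries. The part of these tissues in the members' values was not tested. Median r was 0.20 for meningeal genes (9), 0.16 for endothelium (8), -0.31 for thalamus (8), 0.24 for striatum (8) and 0.19 for hippocampal neurons (10), and without those libraries it was 0.20, 0.08, -0.39, 0.43 and 0.36; no gene of these lists was called at any time by limma.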

How the data were processed

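RNA was extracted with a column kit and made into stranded total RNA libraries read from both ends, per the labels' protocols. The deposited table gives 1 score per gene symbol and library, a log2 signal that the authors had quantile-normalized: every library has the same minimum (-13.64), median (-3.20) and maximum (16.00). The base of the log is read from that scale. Per the submitters' processing notes, bcl2fastq and Partek 6.7 were used with GRCm38, with no roles stated. No aligner, counter or annotation is given in the sources used here. Whether signals are per gene length is not stated, so levels are not compared between genes. Counts and depth are unknown. Between libraries at most 0.0133% of values were equal.

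Rows in the lowest 40% by mean were left out (missing values ranked at the table's minimum), which kept 27721. Of these, 1950 had a missing value in some library, left missing in the fit. limma 3.58.1 (R 4.3.3) fitted 4 groups to all 11 libraries, with a mean-variance trend and two-sided moderated tests, adjusted by Benjamini-Hochberg at 0.05 over all rows. The script was tested on simulated data. The labels do not tie each library to 1 animal; p-values therefore describe spread among libraries, which may be technical.

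Members and lists were chosen with earlier results of these data known. The text names all members, the 2 genes with the smallest p of each further plexus list per comparison, list genes past the threshold (none), and the 10 rows most like the members by Pearson's r, predicted genes passed over; genes cited from other lists as examples were chosen after their values were seen. Coordinates are from RefSeq GRCm38.p6. Alternatives were other filters, missing values at the minimum, other scalings, 2-group fits, no trend, a replicate block and leaving out each library.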

Additional observations from a re-analysis of the deposited data

How the results depend on the processing

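No member passed the threshold in any of 510 refits, where the lowest adjusted p by limma was 0.31. In 488 of them the direction was kept and in 22 it was reversed, 16 of these on leaving out 1 library. Many of the 488 could not have differed. Other filters, missing values at the minimum, no trend and fits of only the compared groups leave a tested member's change as it was. So does leaving out a library of a group not compared. Such refits can move the p-value only, and do not bear on the direction. With the replicate block the 15 min change was -0.13 for Ttr and -0.26 for Folr1. After cyclic loess the 1 h change was 0.11 for Prlr and 0.033 for Otx2, and with libraries shifted to a common median it was 0.097 for Prlr and 0.096 for Otx2; that shift moved the median of all rows from -0.14 to 0.04 at 15 min and from -0.11 to 0.03 at 1 h.

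Leaving out each library in turn, the 15 min change ran from -0.82 to 1.46 for Ttr, -0.90 to 1.12 for Folr1, -0.24 to 1.54 for Kl, -0.33 to 1.56 for Clic6, -0.73 to 1.60 for Aqp1, -0.52 to 0.95 for Otx2, -0.30 to 1.52 for Slc4a5 and -0.54 to 1.29 for Sostdc1. The 1 h change ran from -2.80 to -0.19 for Ttr, -2.01 to -0.33 for Folr1, -1.94 to -0.06 for Aqp1, -1.72 to 0.087 for Kl, -1.05 to 0.15 for Clic6, -0.40 to 0.16 for Prlr, -0.16 to 0.11 for Otx2, -1.50 to 0.24 for Slc4a5 and -1.20 to 0.24 for Sostdc1.

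The number of rows called at 15 min was 31 after cyclic loess, 114 with no trend, 38 with the replicate block, 1 with only the 2 groups compared, and 5 to 103 when leaving out each library. At 1 h it was 136, 159 with the block, 138 with 2 groups, and 42 to 477. At 6 h, 6 rows were called with missing values at the minimum. The split of higher and lower calls was 12 and 54 at 15 min, 10 and 21 after cyclic loess, and 20 and 26 with a common median; at 1 h it was 36 and 207, 40 and 96, and 94 and 107. Same-numbered libraries deviated together in 7 of 15 pairs (r over 0.1, range -0.06 to 0.24), and 6 of 11 libraries correlated best with their own number. Libraries of unlike number reached 0.25 (15 min replicate 3 and 6 h replicate 2). The 2 libraries at 15 min mirror each other once centred on their mean, so each r with one is the other's with the sign turned. Pairs with a 15 min library, of like or unlike number, are therefore not separate observations. Outside 15 min, r reached 0.24 for like numbers (saline and 1 h replicate 3) and 0.15 for unlike ones (saline replicate 2 and 1 h replicate 1). These values do not settle whether libraries of the same number belong together, and the main fit took no account of the number. The causes of these differences were not tested. The runs without 1 library for the times against each other and for the gene lists, and the list likeness without 2 libraries, were chosen after seeing the data. With the lowest 60% of rows left out Slc4a5 was not tested.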

Other observations

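Neurod6, a transcription factor gene of pyramidal neurons chosen here after its values were seen, varied among the saline libraries more than any choroid plexus member did. Its log2 signal was -0.60, -2.07 and 2.55 with saline, -0.60 and 2.26 at 15 min, -1.83, -0.97 and 0.80 at 1 h, and -1.20, -0.24 and 0.54 at 6 h. In every group replicate 3 was its highest library, and the part of the replicate number in this was not tested. Over all libraries it was highest in saline replicate 3 and 15 min replicate 3. The 9 tested members were highest in 15 min replicate 1 and 1 h replicate 3, so the order of libraries differed between Neurod6 and these members.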
